A study of Mus musculus with 8 samples.

Results

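Serpina1-positive chondrocytes are the cartilage cells of the adult mouse femur that carried transcripts of the alpha-1 antitrypsin genes Serpina1a, Serpina1b, Serpina1c and Serpina1d. Every cell was measured by droplet single cell RNA sequencing, in which a unique molecular identifier (UMI) stands for 1 captured transcript. A cell entered the cartilage gate with at least 40 UMIs of Acan, Hapln1 and Matn3 together per 10000, fewer than 10 of Col10a1 per 10000, at most 1 UMI of Ihh and at most 2 of Top2a and Mki67 together. Acan, Hapln1 and Matn3 encode cartilage matrix proteins, Col10a1 and Ihh mark hypertrophic and prehypertrophic cells, and Top2a and Mki67 mark cycling cells. Of 45328 cells with 500 to 6000 genes and at most 25% mitochondrial UMIs, 6720 passed this gate. The 1809 with at least 3 UMIs of the Serpina1 genes are called Serpina1-positive, and the other 4911 cells of the gate Serpina1-low. Of the Serpina1-low cells, 629 held 1 or 2 Serpina1 UMIs and 4282 held 0. All 1809 members were summed by preparation before any gene was tested. Since measured Serpina1 counts chose the cells, the Serpina1a to d genes and the genes of the gate stayed in the tables tested but are only described below, and no test of them is used, and the same holds for every difference in level between members and Serpina1-low cells.

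Alpha-1 antitrypsin is a secreted inhibitor of neutrophil elastase that is known mainly from the liver, and the mouse carries several tandem copies of the gene where most mammals have a single one. Cartilage that turns into bone is built by chondrocytes that pass from a resting through a columnar to a hypertrophic state, under the control of hedgehog, parathyroid hormone-related protein, Wnt, BMP and FGF signals. After a fracture, a cartilage callus forms between the broken ends and follows the same course, so that a fractured femur can hold the cartilage of its growth plates, its joint surfaces and its callus.

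The animals were C57BL/6 wild-type females aged 12 weeks in both groups. In the Fracture group the left leg had been broken by bending at 10 weeks under ketamine and xylazine, held by an intramedullary nail and collected at day 14, with the analgesic carprofen after surgery. Control femurs were unbroken, and the labels give neither nail, anaesthetic nor analgesic for them, so the effects of the break and of its treatment cannot be told apart. Each group held 2 cell preparations with 2 libraries each, 8 libraries in all, and blood cells had been removed from the suspensions by beads against lineage markers, CD45 and CD117. The libraries of a preparation were summed, so that n = 2 per group, and how many animals stand behind a preparation is not given in the sources used here, so the p-values measure the spread between these preparations. The tables give no position in the bone, so growth plate, joint and callus cartilage cannot be told apart by place.

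The libraries held 56543151 to 89126291 UMIs. The median member had 13518 and 18214 UMIs in Control 1 and 2, and 9696 and 10336 in Fracture 1 and 2. Library pairs shared 10 to 23 barcodes, and 0 barcodes were members in more than 1 library. Summed counts of members differed between the Control preparations by 7.38 chi-square units per degree of freedom and between the Fracture preparations by 3.21, against 1.96 to 2.39 for the libraries of 1 preparation. Both tables of Control preparation 1 held no row for 369 gene names, 290 of them beginning with U, such as the cartilage gene Ucma. These genes took 1.32% to 1.37% of member UMIs in the other preparations, and they were left out of all sums and tests.

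The sequences at the start of the Serpina1 genes are shown first, because members are defined by the sum of these near-identical copies. On chromosome 12 of GRCm38, minus strand, GENCODE M21 places Serpina1a at chr12:103853589-103863562, Serpina1b at chr12:103728156-103830373 and Serpina1d at chr12:103763594-103773592. The Serpina1b model spans that of Serpina1d, and the longest coding transcripts of Serpina1a, b, c and d were 96.3% to 98.3% identical, with 95.3% to 96.5% over their last 400 bases, where a 3 prime library is read. UMIs could therefore be split unevenly or wrongly among the copies, and the sum over them is the firmer measure. The promoter windows below, from RefSeq on GRCm38.p6, run from 250 bases before to 50 bases after the start of each gene, 5 prime to 3 prime on the gene's strand. Capitals mark the longest run of letters that the windows of Serpina1a, b, c, d and e have in common, 59 bases long, and of 32851 promoter windows of this length these 5 (0.0152%) held it.
Serpina1a: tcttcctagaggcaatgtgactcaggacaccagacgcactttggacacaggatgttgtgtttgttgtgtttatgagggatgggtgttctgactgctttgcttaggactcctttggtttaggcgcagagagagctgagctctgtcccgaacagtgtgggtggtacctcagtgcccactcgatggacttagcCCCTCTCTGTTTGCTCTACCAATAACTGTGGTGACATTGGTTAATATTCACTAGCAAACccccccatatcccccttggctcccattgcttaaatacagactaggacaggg
Serpina1b: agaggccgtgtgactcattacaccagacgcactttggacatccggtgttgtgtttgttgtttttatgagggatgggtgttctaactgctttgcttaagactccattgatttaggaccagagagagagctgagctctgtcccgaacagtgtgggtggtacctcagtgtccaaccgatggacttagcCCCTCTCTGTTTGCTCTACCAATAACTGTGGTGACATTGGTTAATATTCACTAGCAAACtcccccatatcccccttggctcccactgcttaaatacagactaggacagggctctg
Serpina1d: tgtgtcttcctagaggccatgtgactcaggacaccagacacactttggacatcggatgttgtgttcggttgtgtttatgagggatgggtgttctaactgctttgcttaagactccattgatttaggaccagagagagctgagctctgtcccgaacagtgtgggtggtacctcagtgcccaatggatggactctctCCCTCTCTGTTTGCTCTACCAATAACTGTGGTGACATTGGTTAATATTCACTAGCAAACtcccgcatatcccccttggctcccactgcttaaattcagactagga
Over these windows the copies a to d were 91.4% to 94.9% identical. The windows lie at chr12:103863570-103863869 for Serpina1a, chr12:103738140-103738439 for Serpina1b and chr12:103773584-103773883 for Serpina1d, and no measure of binding or chromatin was part of these data. They follow the gene starts of RefSeq, which differ from the GENCODE positions given above: the Serpina1a window lies just before the GENCODE start, the Serpina1b window lies inside the longer GENCODE model, and the Serpina1d window holds the GENCODE start.

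Members carried a lowest count of 3 Serpina1 UMIs in every preparation, the value the rule sets. The median was 23 and 35 UMIs per cell in Control and 12 and 11 in Fracture, and the highest counts were 449, 510, 287 and 518. Per 10000 UMIs of the cell the medians were 19.01, 21.6, 12.6 and 10.97, so the Control medians lay above the Fracture medians on this scale too. Serpina1a took 42.1% and 44.4% of the Serpina1a to d UMIs of members in Control and 35.5% and 38.1% in Fracture. Serpina1b took 20.9% and 22.1% in Control and 34.5% and 30.9% in Fracture, Serpina1d between 29.0% and 35.9%, and Serpina1c between 1.06% and 2.18%. The Fracture preparations thus held a larger assigned share of Serpina1b and a smaller one of Serpina1a. Serpina1e, which the rule does not use, stood at 15.1 and 12.5 CPM, the UMIs of a gene per 1000000 UMIs of the sum, in Control members and at 4.40 and 7.22 in Fracture members. Both Serpina1a and Serpina1d were found in 87.9% and 90.9% of Control members and in 76.5% and 70.9% of Fracture members. Cdh5 cells carried at least 3 UMIs of the endothelial genes Cdh5, Emcn and Pecam1 together and little cartilage RNA. Their Control sums also held the basophil gene Prss34, at 4538 and 6542 CPM. Of Cdh5 cells, 6.96%, 3.98%, 2.77% and 3.72% held any Serpina1 UMI at median depths of 6751, 7023, 7511 and 8145 UMIs. That share is given as the background of these libraries, in cells shallower than the members.

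Levels of cartilage genes and of the markers of the cells' label are given here as a description. Members held Col2a1, the main collagen of cartilage, at 53749 and 51474 CPM in Control and 47229 and 49862 in Fracture, against 82.2 to 885 CPM in Cdh5 cells. Sox9, the transcription factor of cartilage, stood between 1366 and 1512 CPM in all 4 preparations. Of the other label markers, Fxyd2, Rspo4 and Pax1 were higher in members than in Serpina1-low cells in each preparation. The joint surface gene Prg4, lubricin, was at 112, 14.5, 256 and 73.8 CPM in members, and a single cell held 84.9%, 81.7%, 51.0% and 87.1% of those UMIs. The gate and the rule chose the cells by cartilage genes and Serpina1 counts, so these levels describe the members and do not test their name. A place in the growth plate was not measured.

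The share of Serpina1-positive cells in the cartilage gate was higher in Control than in Fracture, with no overlap. In Control preparation 1 members were 816 of 1216 gate cells (67.1%, 95% Wilson interval 64.4 to 69.7), and in preparation 2 they were 265 of 343 (77.3%, 72.5 to 81.4). In Fracture they were 336 of 2472 (13.6%, 12.3 to 15.0) and 392 of 2689 (14.6%, 13.3 to 16.0). Intervals cover counting error only, and the means were 72.2% ± 7.18 (SD, n = 2) and 14.1% ± 0.697 (SD, n = 2). The two-sided exact permutation test gave p = 0.333, the smallest value that 2 against 2 preparations allow, so a threshold of 0.05 could not be reached. Depth differed between the groups, and with the cells of at least 3000 UMIs thinned to that number before the rule was applied the shares were 46.1%, 54.7%, 7.98% and 8.09%. This left out 77 and 10 shallower gate cells in Control and 0 in Fracture. The gate itself grew, from 1216 and 343 cells to 2472 and 2689. Of all cells that passed the filters, members were 6.397% and 3.35% in Control and 2.83% and 3.07% in Fracture, a gap of 1.92 points that is smaller than the 2.16 points of SD between the Control preparations. Fewer members and more cells of other kinds in the suspension cannot be told apart in shares.

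**Figure D1:**
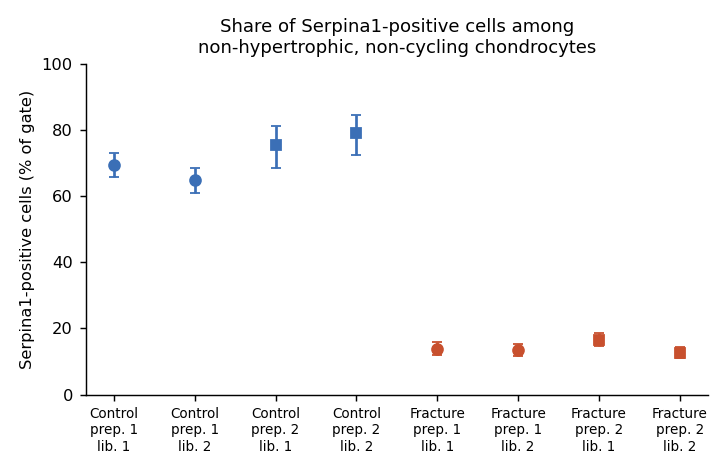
Share of Serpina1-positive cells among all cells of the cartilage gate (y axis, percent) in each library (x axis), with 95% Wilson intervals for counting error. The 4 Control libraries lie between 64.8% and 79.2%, and the 4 Fracture libraries between 12.7% and 16.5%.

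Set against the Serpina1-low cells of the same preparation, members carried more Fxyd2, Rspo4, Pax1, Mgst2, Slc6a12 and A2m and less Npy, Inhba, Rbp4 and Frzb. Because the rule drew this line, the values are a description. Of 5338 genes with a mean of at least 20 CPM in members and Serpina1-low cells, 24.8% were higher in members in all 4 preparations and 1.76% were so by a mean of at least 1 on the log2(CPM + 1) scale, and 15.6% and 1.8% were lower in the same ways. The widest gaps are given next, with values in the order Control 1, Control 2, Fracture 1 and Fracture 2.

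Fxyd2, the gamma subunit that modulates the sodium pump in the kidney, stood at 2321, 2455, 2594 and 2275 CPM in members and at 1220, 1264, 340 and 293 CPM in Serpina1-low cells. It was found in 96.3% to 99.7% of members, in 66.7% to 69.0% of Serpina1-low cells in Control and in 32.5% to 33.7% of them in Fracture, and in 2.67% to 6.61% of Cdh5 cells. The levels in members overlapped between the groups, while the Serpina1-low level in Fracture lay far below that in Control. Rspo4, a secreted amplifier of Wnt signals, was at 111, 130, 140 and 108 CPM in members and at 49.7, 41.5, 11.6 and 9.66 in Serpina1-low cells. Pax1, a transcription factor of the embryonic vertebral column, was at 98.9, 109, 151 and 134 CPM in members and at 47.6, 35.0, 23.3 and 21.2 in Serpina1-low cells. The antisense RNA AI646519, whose locus overlaps the start of Pax1 on the other strand, was at 22.6 to 25.8 CPM in the 4 sums of members against 7.49, 5.53, 3.87 and 4.41 in Serpina1-low cells. The kit reads transcripts by strand, but the counting step is not settled, so reads of Pax1 and its antisense partner may have been mixed.

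Mgst2, a glutathione transferase of the membrane that can make leukotriene C4, had the largest mean gap of the genes picked as higher in members outside the rule, 2.72 on the log2 scale, with 67.2, 67.2, 98.1 and 96.4 CPM against 21.6, 7.37, 10.2 and 10.1. Slc6a12, a betaine and GABA transporter, was at 70.9, 73.8, 87.8 and 71.5 CPM against 39.9, 37.8, 9.68 and 10.2. A2m, alpha-2-macroglobulin, which like alpha-1 antitrypsin traps proteases in plasma, was at 36.0, 38.3, 256 and 264 CPM against 11.6, 8.29, 44.7 and 48.8. With cells thinned to 3000 UMIs its mean gap went from 2.13 to 1.45. The remaining names of the rule were AW112010, Tenm2, a cell adhesion protein of the teneurin family, BC030870, Arc, a neuronal activity gene, and Plin4, a lipid droplet coat protein, with mean gaps of 1.92 to 2.56.

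Of 8 articular and superficial genes at this level, 3 were lower and 2 higher in members in all 4 preparations. Genes that the naming rule picked for lower levels in members are given next. Npy, neuropeptide Y, gave 4 UMIs over all members of Control 1 and 0 in the other 3 preparations, against 119, 250, 3.17 and 2.09 CPM in Serpina1-low cells. Inhba, the activin A subunit, was at 3.20, 1.43, 9.98 and 5.12 CPM in members and 218, 39.6, 119 and 103 in Serpina1-low cells. Rbp4, a retinol carrier, was at 60.1, 51.8, 51.7 and 44.5 CPM against 326, 405, 885 and 717. Frzb, a secreted Wnt antagonist of joint cartilage, was at 12.8, 10.7, 27.3 and 30.0 CPM against 79.6, 65.4, 333 and 303. Abi3bp, Sbsn, Megf6, Ank2, Igfbp6, Vcan and Col3a1 were picked as well, with mean gaps of 2.98 to 3.57 in size. Igfbp6, whose gap was 3.08, went to 1.77 with thinned cells.

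**Figure D2:**
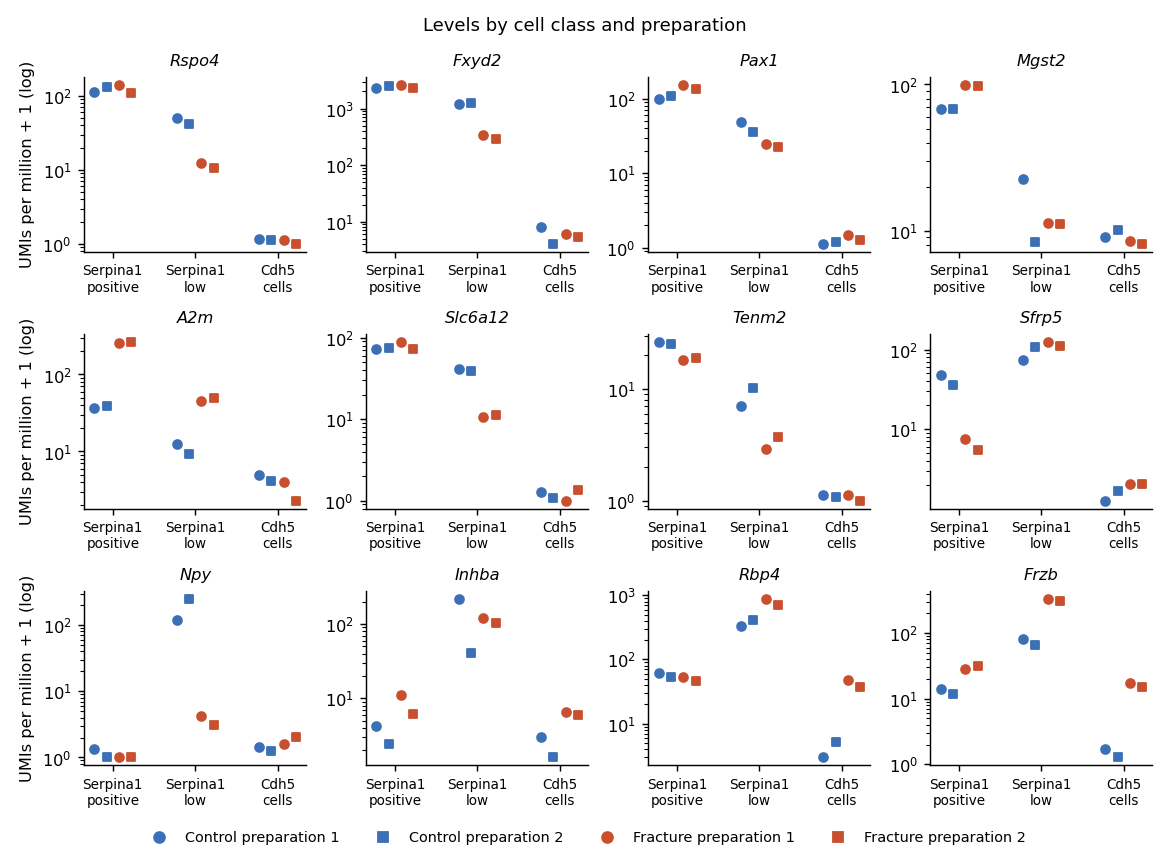
Level of 12 genes (y axis, CPM + 1 on a log axis) in Serpina1-positive cells, Serpina1-low cells of the gate and Cdh5 cells (x axis), with 1 point per preparation. Fxyd2 lies between 2275 and 2594 in all 4 sums of members and falls to 293 in Serpina1-low cells of Fracture, while Npy is near 0 in members throughout.

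Cartilage matrix genes differed between the classes in both directions. Of 25 at this level, 7 were higher and 11 lower in members in all 4 preparations, against 24.8% and 15.6% of all genes, with a median difference of -0.04 against 0.04 over all genes. Dcn, the small proteoglycan decorin, was lower in members, at 867, 755, 707 and 751 CPM against 3258, 2788, 3454 and 3219. Chst11, an enzyme of chondroitin sulfation, was higher, at 894, 909, 923 and 854 CPM against 493, 535, 423 and 410.2. Of 21 immediate early genes, 16 were higher in members in all 4 preparations, with a median of 0.87. Junb, a growth factor response gene, was at 1705, 1234, 3703 and 3179 CPM against 851, 569, 1454 and 1365.

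Within the gate Fxyd2, Rspo4 and Pax1 were highest in the cells with the most Serpina1 UMIs, in each of the 4 preparations. These values rest on the measure that chose the cells and are a description. In cells with 0 Serpina1 UMIs, Fxyd2 stood at 901 and 827 CPM in Control and 209 and 184 in Fracture, and in cells with more than 10 UMIs at 2374 and 2542 in Control and 2708 and 2531 in Fracture. Rspo4 went from 36.1, 40.1, 6.83 and 5.40 CPM to 119, 135, 151 and 133 over the same span, and Pax1 from 53.7, 30.1, 21.4 and 18.8 to 117, 121, 220.4 and 163. Cytl1, a cytokine-like protein made by chondrocytes, followed another course in Control, with 2085 and 1247 CPM at 0 UMIs, 764 and 270 at 3 to 5 UMIs and 1882 and 1957 above 10. In Fracture it was at 82.4 and 70.7 CPM at 0 UMIs and at 1310 and 1354 above 10. Col2a1 went the other way above 10 UMIs, from 61304 and 60487 CPM at 3 to 5 UMIs in Fracture to 37961 and 40831. At the threshold itself, cells with 2 UMIs, just outside, held Fxyd2 at 2017, 1618, 1988 and 1790 CPM, and cells with 3 UMIs, just inside, at 1854, 1450, 2667 and 1974. Crossing the threshold thus gave a lower level in Control and a higher one in Fracture, and the rule cuts a graded count. The Control 2 sums at 2 and 3 UMIs rest on 17 and 6 cells.

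**Figure D3:**
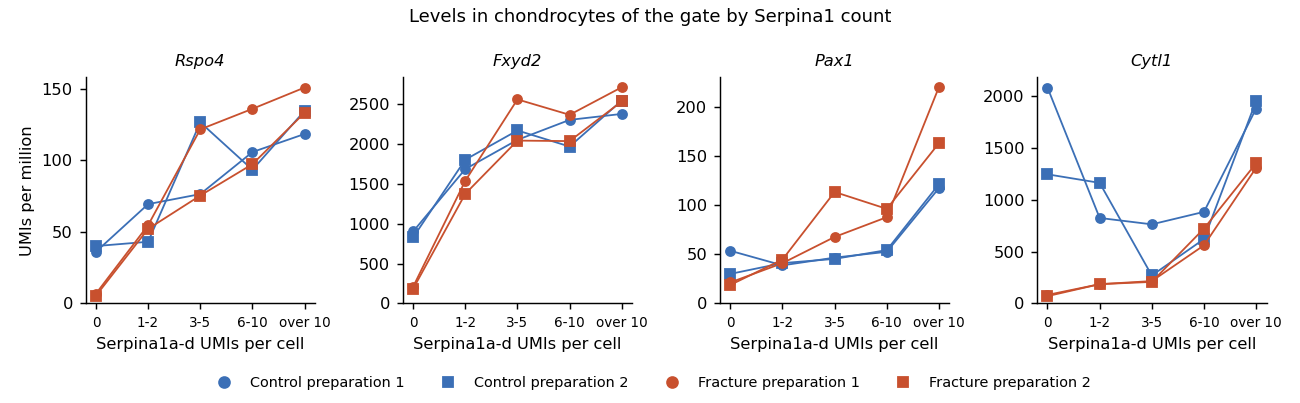
Summed level of Rspo4, Fxyd2, Pax1 and Cytl1 (y axes, CPM) in gate cells grouped by their number of Serpina1a to d UMIs (x axes), with 1 line per preparation. Fxyd2 rises from 901, 827, 209 and 184 at 0 UMIs to between 2374 and 2708 above 10 UMIs.

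The next comparison asked how members differed between fractured and unfractured bone. After fracture they carried more metallothionein and immediate early transcripts and less of several resting zone and hedgehog pathway genes. Of those falls, only Sfrp5, Apoe and Hhip kept their calls with any 1 preparation left out. Apoe fell in Cdh5 cells too. edgeR's quasi-likelihood test on the 4 sums, with Benjamini-Hochberg adjustment over 11468 genes, called 949 genes at an adjusted p under 0.05, 8.28% of those tested, with 646 higher (5.63%) and 303 lower (2.64%) after fracture. For 56.1% of the genes tested, both Fracture values lay on 1 side of both Control values. The count depended on single preparations, with 1676 calls without Control 1, 1935 without Control 2, 233 without Fracture 1 and 288 without Fracture 2. With 1 sample left in a group the spread came from the other group alone. DESeq2 called 563. With the genes missing from Control 1 kept in the sums, read there as 0, 256 genes were called.

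Of the 3 label markers outside the rule, 1 was called in members. Fxyd2 differed by 0.07 ± 0.11 (log2, SE) and Rspo4 by 0.08 ± 0.14, with adjusted p of 0.758 and 0.765 in edgeR, and the values in all 4 preparations are given above. Pax1 was higher by 0.50 ± 0.10 (adjusted p = 0.0252, edgeR), a call that was lost without Fracture 1 (adjusted p = 0.194) and without Fracture 2 (adjusted p = 0.0943). The summed Serpina1a to d level, which the rule bounds from below, was 3207 and 3545 CPM in Control and 2667 and 2655 in Fracture.

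Metallothioneins, which bind zinc and respond to metals and glucocorticoids, gave some of the largest rises. Mt1 stood at 10.5 and 6.35 CPM in Control and at 165 and 216 in Fracture, a log2 difference of 4.46 ± 0.22 (adjusted p = 6.24e-05, edgeR). It was found in 6.74% and 7.92% of Control members and in 34.8% and 38.5% of Fracture members. The shares in Cdh5 cells were 8.44%, 7.09%, 15.9% and 18.7%, so the Control shares in members are not read as expression. How much of them was background was not tested. Mt2 went from 2.94 and 3.48 CPM to 59.3 and 69.2, a difference of 4.41 ± 0.17, and Cdh5 cells held it at 3.75, 2.44, 10.9 and 17.0 CPM. Of the 12 genes of the metallothionein and glucocorticoid list, 7 rose, 2 fell and 3 were not called, with a median of 1.55 against -0.01 over all genes. The others that rose were Errfi1, Cebpb, Cebpd, Klf9 and Cdkn1a, and Cebpb, a transcription factor of the acute phase response, went from 33.9 and 20.3 CPM to 153 and 135. Tsc22d3 and Zbtb16, which glucocorticoids induce in many cells, fell. Tsc22d3 went from 206 and 142 CPM to 112 and 97.6, a call lost without Fracture 1 (adjusted p = 0.16) and Fracture 2 (adjusted p = 0.215), and Zbtb16 from 15.0 and 10.2 to 1.76 and 4.19, a call lost without Fracture 1 (adjusted p = 0.108). Both were lower after fracture in Cdh5 cells too, Tsc22d3 at 144, 103, 84.0 and 74.9 CPM and Zbtb16 at 16.8, 19.5, 0.582 and 1.39.

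Rcan1, picked by the naming rule, and Nfatc1 and Nfatc2, of the transcription factor list, were higher after fracture. All 3 lie around calcineurin, a calcium-driven phosphatase, but no list of that route was drawn up, and its other genes were not tallied. Rcan1, an inhibitor of calcineurin that NFAT itself induces, went from 13.7 and 12.3 CPM to 141 and 130, a log2 difference of 3.40 ± 0.11 (adjusted p = 2.34e-05, edgeR). It was found in 14.3% and 13.6% of Control members and in 43.2% and 40.3% of Fracture members. Cdh5 cells had a UMI in 12.9%, 11.6%, 25.3% and 28.6%, with 15.5, 15.3, 55.4 and 53.4 CPM, a rise in the same direction. With cells thinned to 3000 UMIs the shares were 4.54%, 2.66%, 25% and 22.4% in members and 5.80%, 3.70%, 12.6% and 13.7% in Cdh5 cells. The Control shares in members are therefore not read as expression, and how much of them was background was not tested. Nfatc1 went from 53.7 and 49.995 CPM to 164 and 175, and Nfatc2 from 31.6 and 22.5 to 132 and 115, with log2 differences of 1.75 ± 0.09 and 2.20 ± 0.15. They were among 5 of 18 tested chondrocyte transcription factors that rose, none of which fell, with Pax1, Foxa3 and Foxc1. Foxc1, which acts in the development of cartilage, went from 137 and 102 CPM to 256 and 245, and the call on Foxa3 was lost without Fracture 1 (adjusted p = 0.07) or Fracture 2 (adjusted p = 0.127).

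Of 22 immediate early genes tested, 15 rose, 0 fell and 7 were not called, with a median of 1.18, and 6 of the 15 kept their call with any 1 preparation left out. Atf3, a stress response repressor, went from 154 and 99.4 CPM to 635 and 632, and Socs3, a feedback inhibitor of cytokine receptors, from 326 and 222 to 994 and 922. Both were lower in Cdh5 cells and moved in the same direction there, Atf3 at 20.8, 10.4, 124 and 126 CPM and Socs3 at 69.3, 60.2, 298 and 288. Rrad, a small GTPase that restrains calcium channels, went from 9.97 and 11.7 CPM to 123 and 106, a log2 difference of 3.47 ± 0.13 (adjusted p = 3.65e-05, edgeR). Dusp5, a phosphatase of ERK, went from 5.78 and 4.71 CPM to 42.9 and 44.0. Cdh5 cells held Rrad at 9.02, 7.11, 25.4 and 20.8 CPM and Dusp5 at 18.4, 16.2, 21.9 and 27.0. The neutrophil chemokine Cxcl1 went from 12.0 and 6.56 CPM to 81.9 and 107, and Tnfaip2, a gene that tumour necrosis factor induces, from 6.14 and 5.12 to 43.2 and 44.7. Cdh5 cells held Cxcl1 at 2.14, 2.98, 38.4 and 45.9 CPM and Tnfaip2 at 53.6, 87.3, 97.7 and 123, and Serpina1-low cells held Cxcl1 at 6.24, 0.921, 59.95 and 56.7 and Tnfaip2 at 6.24, 7.37, 61.7 and 82.7, so both genes were higher after fracture in the other cells too. Irf1, an interferon response factor, went from 27.7 and 14.7 CPM to 137 and 119, and was 1 of 3 of 14 interferon and MHC genes that rose, and Cdh5 cells held it at 44.8, 72.0, 104 and 97.0 CPM. S100a4, a calcium-binding protein of motile and stromal cells, went from 16.3 and 13.9 CPM to 151 and 122, but it also stood at 101, 96.9, 213 and 171 CPM in Cdh5 cells. Slurp1, a secreted peptide of epithelia, went from 4.63 and 2.25 CPM to 62.8 and 34.2, with UMIs in 11.3% and 8.67% of Fracture members and in 0.0865% to 0.311% of Cdh5 cells.

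Among protease inhibitors more genes rose than fell. Of 20 serpins and other protease inhibitors tested, those of the rule left out, 8 rose, 2 fell and 10 were not called, a median of 0.88. The falls were Reck, an inhibitor of metalloproteinases at the cell surface, and Serpina1e, whose reads may be shared with the copies of the rule. A2m differed by 2.85 ± 0.10 (log2, adjusted p = 2.34e-05, edgeR), with UMIs in 14.7% and 19.6% of Control members and 37.8% and 38.3% of Fracture members, and in 0.718% to 1.66% of Cdh5 cells. Serpina3n, an acute phase relative of Serpina1, went from 7.83 and 5.94 CPM to 28.2 and 22.1. Timp1 and Timp3, inhibitors of matrix metalloproteinases, went from 317 and 322 CPM to 952 and 879 and from 73.8 and 71.7 CPM to 164 and 148. Cdh5 cells held Timp1 at 13.9, 10.7, 193 and 181 CPM. The calls on A2m, Serpina3n, Timp1 and Timp3 held with any 1 preparation left out, and the others were lost in at least 1 such fit. Of 23 matrix proteases tested, 6 rose and 2 fell, and 0 of these calls held with any 1 preparation left out. Mmp13, a collagenase of hypertrophic cartilage, was at 37.0 and 4.92 CPM in Control and 137 and 102 in Fracture, and it stood at 33.1, 33.4, 259 and 227 CPM in Cdh5 cells.

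Some genes of energy metabolism rose. Of 24 glycolysis and hypoxia genes tested, 11 rose and 0 fell, with a median of 0.55, and 2 of the calls, on Hk2 and Pfkfb3, held with any 1 preparation left out. Hk2, which starts glycolysis, went from 38.9 and 56.8 CPM to 116 and 158, and Pfkfb3, which drives its next control point, from 16.7 and 21.1 to 70.5 and 68.2. Of 28 genes of folding and secretion in the endoplasmic reticulum, 5 rose and 0 fell, with a median of 0.11, and 1 of the 5 calls held in this way. Of 21 S and G2M phase genes tested, 2 rose, Cdk1 and Ccnb2, and the gate had set an upper limit on cycling genes. The call on Cdk1 was lost without Fracture 1 (adjusted p = 0.16) or Fracture 2 (adjusted p = 0.115), and that on Ccnb2 without Fracture 1 (adjusted p = 0.205).

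Genes of the resting zone, the reserve of the growth plate, fell more often than they rose. Of 9 tested, 6 fell, 2 rose and 1 was not called, with a median of -1.31. Of these calls, the falls of Sfrp5 and Apoe and the rise of Nt5e held with any 1 preparation left out. Sfrp5, a secreted Wnt antagonist, went from 46.4 and 35.0 CPM to 6.46 and 4.42, a log2 difference of -2.90 ± 0.22 (adjusted p = 0.000417, edgeR). It was found in 13.8% and 8.30% of Control members and in 2.68% and 2.04% of Fracture members, and 1 cell held 49.7% of its UMIs in Control 2. Cdh5 cells had a UMI in 0.249% to 0.952%. In the Serpina1-low cells it stood at 72.2, 108, 124 and 110 CPM. Apoe, the lipid carrier apolipoprotein E, went from 1273 and 1006 CPM to 294 and 338, a difference of -1.80 ± 0.14 (adjusted p = 0.000419, edgeR), with UMIs in 85.9% and 82.3% of Control and 53.6% and 54.8% of Fracture members. Cdh5 cells had a UMI in 71.8%, 76.6%, 46.5% and 45.3% and held Apoe at 706, 1080, 276 and 273 CPM, a fall of the same direction. With cells thinned to 3000 UMIs the shares were 64.1%, 53.2%, 31.0% and 28.3% in members and 60.2%, 70.6%, 33.0% and 32.9% in Cdh5 cells. In thinned Serpina1-low cells they were 44.2%, 45.7%, 8.99% and 9.14%. How much of the share in members was background was not tested. Pthlh, parathyroid hormone-related protein, which holds chondrocytes back from hypertrophy, went from 38.7 and 22.7 CPM to 8.81 and 11.4, a call lost without Fracture 1 (adjusted p = 0.121) or Fracture 2 (adjusted p = 0.0652). Clu, the secreted chaperone clusterin, went from 97.9 and 49.0 CPM to 25.5 and 20.9, a call lost without Fracture 1 (adjusted p = 0.106) or Fracture 2 (adjusted p = 0.127), and it stood at 566 and 198 CPM in Cdh5 cells of Control against 133 and 137 in Fracture. Wif1 and Spon1 fell too, and both calls were lost without Fracture 1 (adjusted p = 0.084 and 0.0971). Nt5e and Gas1 rose, but the call on Gas1 was lost without Fracture 1 (adjusted p = 0.207), it fell by 1.53 with the second library of each preparation alone, and 1 cell held 45.2% of its UMIs in Fracture 1.

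Several genes of the hedgehog pathway were lower too. Hhip, a hedgehog-binding protein at the cell surface that hedgehog signals induce, went from 204 and 146 CPM to 48.4 and 45.4, a log2 difference of -1.86 ± 0.15 (adjusted p = 0.000625, edgeR), and from 65.8% and 61.9% of members to 30.1% and 27.3%. In Cdh5 cells 0.186% to 0.779% had a UMI. The receptor Ptch1, another target, went from 41.8 and 49.0 CPM to 25.8 and 20.5, a call lost without Fracture 2 (adjusted p = 0.1), and the transducer Smo from 43.4 and 45.5 to 27.9 and 23.5, lost without Fracture 1 (adjusted p = 0.0586) or 2 (adjusted p = 0.109). Of 12 hedgehog and PTHrP genes tested, 4 fell, 1, Gas1, rose and 7 were not called, with a median of -0.53, and the call on Hhip alone held with any 1 preparation left out. Pthlh, 1 of the 4 that fell, and Gas1 are also counted in the resting zone list above. Hip1, which encodes huntingtin interacting protein 1 and is no hedgehog gene, stood in the hedgehog and PTHrP list by its symbol. It was taken out of the count of 12 after its values were seen. It was at 29.99 and 30.7 CPM in Control and 40.5 and 42.1 in Fracture, a call lost without Fracture 1 (adjusted p = 0.148) or Fracture 2 (adjusted p = 0.222).

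Among other signals, Wnt4 rose from 116 and 115 CPM to 236 and 219, and Frzb from 12.8 and 10.7 to 27.3 and 30.0, while Cdh5 cells held Frzb at 0.741, 0.271, 16.2 and 14.3 CPM. Rspo3, which like Rspo4 amplifies Wnt signals, stood at 146, 160, 182 and 152 CPM and was not called (adjusted p = 0.391, edgeR). Of 28 Wnt and R-spondin genes tested, 3 rose and 4 fell, with a median of -0.01, and 3 of the 7 calls held with any 1 preparation left out. Of 26 BMP and TGF-beta genes, 5 rose and 4 fell, with a median of 0.02, and 3 of the 9 calls held in this way. Id2 and Id3, direct targets of BMP signals, went from 235 and 304 CPM to 658 and 533 and from 211 and 221 to 560 and 456, and the feedback inhibitor Smad7 from 48.9 and 60.2 to 162 and 165. Cdh5 cells held Id3 at 648, 901, 1126 and 1099 CPM and Smad7 at 88.8, 115, 154 and 147. Of 19 FGF and IGF genes, 5 rose and 2 fell, and Igf1, a growth factor of cartilage, went from 24.4 and 20.9 CPM to 54.9 and 58.2, while Cdh5 cells held it at 22.4, 24.5, 59.8 and 83.7 CPM. Of the 7 FGF and IGF calls, 1 held with any 1 preparation left out. Of 20 FXYD and ion transport genes, 1 rose and 3 fell, and none of these calls held with any 1 preparation left out.

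Matrix genes of the cells were mostly not called. Of 26 columnar matrix genes tested, 2 rose, 1 fell and 23 were not called, with a median of -0.01, 1 of the 3 calls held with any 1 preparation left out, and Col2a1 differed by -0.07 ± 0.13 (adjusted p = 0.782, edgeR). Matn4, a matrix adaptor protein, rose from 59.4 and 46.1 CPM to 128 and 138. Of 9 articular and superficial genes tested, 3 fell and 0 rose. Cytl1 went from 1592 and 1686 CPM to 851 and 876, a log2 difference of -0.88 ± 0.10, a call lost without Fracture 1 (adjusted p = 0.0546). Cytl1 was highest in members with more than 10 Serpina1 UMIs, which were 578 of 816 and 220 of 265 in Control. In Fracture they were 181 of 336 and 198 of 392. Within these cells Cytl1 stood at 1882 and 1957 CPM in Control and at 1310 and 1354 in Fracture. How much of its fall came from this makeup was not tested. Cilp2, a protein of the intermediate layer of cartilage, went from 73.1 and 64.7 CPM to 25.3 and 25.8, and Clec3a, a cartilage lectin, from 101 and 129 to 49.3 and 50.5. R3hdml, a secreted CAP family protein, went from 367 and 300 CPM to 89.3 and 107, and Tubb2b, a beta tubulin, from 72.3 and 62.5 to 15.6 and 14.7. Cdh5 cells held Tubb2b at 95.5, 53.3, 17.6 and 16.9 CPM, a fall in the same direction. Hspa1b, a heat shock chaperone, went from 112 and 153 CPM to 37.3 and 32.4. It was lower after fracture in Cdh5 cells too, at 46.4, 62.5, 31.6 and 31.1 CPM, and in Serpina1-low cells, at 72.1, 96.7, 18.7 and 20.1 CPM. Ctgf, a matrix protein that TGF-beta and YAP induce, went from 1362 and 868 CPM to 352 and 403, a call lost without Fracture 1 (adjusted p = 0.0586). Of 19 tested genes of the prehypertrophic and hypertrophic list, 4 rose and 1 fell, and 1 of these 5 calls held with any 1 preparation left out. Col10a1, capped by the gate, was at 36.3, 12.7, 331 and 306 CPM in members, and at 35.4, 33.9, 352 and 343 CPM in Cdh5 cells, which should lack it.

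**Figure D4:**
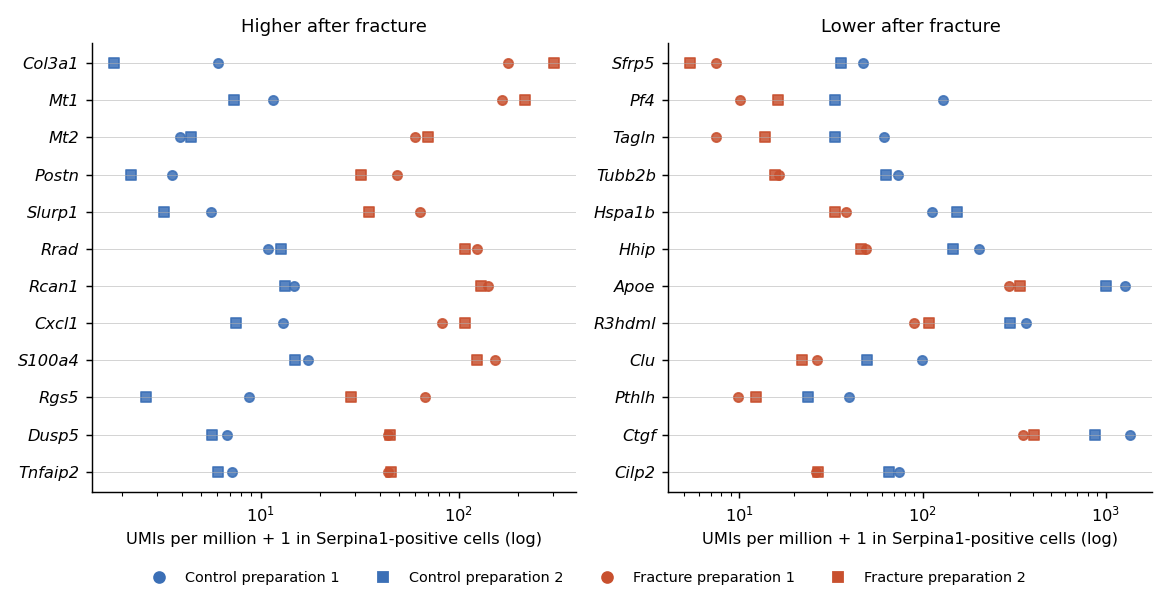
Level in Serpina1-positive cells (x axes, CPM + 1 on a log axis) of the 12 genes with the largest called rises and the 12 with the largest called falls after fracture under the naming rule, with 1 point per preparation. The Control and Fracture points do not overlap for any of the 24 genes, as the rule required, and Col3a1 spans 0.820 to 302 before the added 1.

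Genes that mark other cells were among the calls in both directions and are given beside their values in Cdh5 cells. Their part in the calls was not tested. The stroma and callus list had 9 rises and 1 fall in 17 genes tested, a median of 1.22, and 4 of the 10 calls held with any 1 preparation left out. Col3a1, collagen of loose connective tissue, had the largest rise, from 5.07 and 0.820 CPM to 176 and 302, a log2 difference of 6.09 ± 0.45 (adjusted p = 0.000391, edgeR). It was found in 6.25% and 1.51% of Control and 51.8% and 57.7% of Fracture members, and in 7.26%, 2.30%, 49.2% and 54.2% of Cdh5 cells of the same libraries, which held it at 32.8, 18.2, 670 and 512 CPM. The share in members thus lay near the background share and is not read as expression. Postn, periostin of the periosteum, went from 2.58 and 1.23 CPM to 48.2 and 31.2 in members and from 12.1 and 4.26 to 87.7 and 67.8 in Cdh5 cells. Pf4, a platelet gene, fell from 128 and 32.2 CPM to 9.10 and 15.4 in members, and from 5174 and 1274 to 370 and 163 in Cdh5 cells. Its call was lost without Fracture 1 or Fracture 2. It was also lost with DESeq2 (adjusted p = 0.102), with the higher Serpina1 thresholds and with the first library of each preparation alone. Rgs5, a pericyte gene, rose from 7.74 and 1.64 CPM to 66.7 and 27.5, while Cdh5 cells held 237, 101, 208 and 164 CPM with overlap between the groups. In members 1 cell held 54.6% of its UMIs in Fracture 1 and 1 cell 86.4% in Fracture 2, and its call was lost without Fracture 1 (adjusted p = 0.0933). Tagln, a smooth muscle gene, fell from 60.5 and 32.2 CPM to 6.46 and 12.8, and 1 cell held 51.0% of its UMIs in Control 2. In Cdh5 cells its values, 130, 39.3, 83.1 and 60.4 CPM, overlapped between the groups. Its call was lost without Fracture 1 (adjusted p = 0.0884).

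Whole marker lists of other cells gave the following summed levels in members. The 12 blood genes summed to 386, 81.3, 1774 and 1318 CPM, with 2 of 7 tested genes higher, the haemoglobin genes Hbb-bs and Hba-a1, and 1, Mpo, lower after fracture, and all 3 calls were lost without Fracture 1 and without Fracture 2 (adjusted p of 0.0746 to 0.157). Cdh5 cells held the blood genes at 2383, 1770, 3866 and 4526 CPM and Serpina1-low cells at 64.9, 235, 1126 and 641. In members Hbb-bs alone gave 239, 44.9, 1339 and 992 CPM, while the pan-leukocyte gene Ptprc was at 0 in Fracture 1 and at most 0.890 CPM elsewhere. The 7 endothelial genes summed to 45.8, 37.7, 107 and 74.5 CPM, with 3 of 7 higher, none of which kept its call with any 1 preparation left out, against 4181 to 8541 CPM in Cdh5 cells. The 7 osteoblast genes summed to 3491, 2528, 2687 and 4277 CPM and the 6 marrow stroma genes to 433, 43.6, 76.9 and 222, with 1 of 7 osteoblast genes higher, 1 lower, and 0 of 6 marrow stroma genes called. Neither osteoblast call held with any 1 preparation left out. Cdh5 cells held the osteoblast genes at 1841, 1434, 3481 and 3882 CPM and the marrow stroma genes at 966, 923, 768 and 819. The 7 fibroblast genes summed to 3.91, 1.64, 11.5 and 48.2 CPM, with the 1 tested gene, Igfbp6, higher, a call lost without Fracture 2 (adjusted p = 0.371), and the tendon genes Tnmd and Kera were at 0 in both Control sums. The 5 smooth muscle genes summed to 75.1, 33.4, 89.8 and 60.8 CPM, with 1 of 4 higher, Rgs5, and 1 lower, Myh11, a call lost without Fracture 1 (adjusted p = 0.0586) or Fracture 2 (adjusted p = 0.164). Cdh5 cells held the fibroblast genes at 24.4, 25.2, 143 and 105 CPM and the smooth muscle genes at 439, 144, 333 and 256. Doublets were called in 50 of 1809 members, 32 of them in Control 1, and 1283 genes were called without them.

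The last comparison asked whether the change after fracture was the same in members as in the Serpina1-low cells of the gate. It was not the same for 1486 of 12284 genes (12.1%), tested as a class-by-group term in edgeR's quasi-likelihood fit with Benjamini-Hochberg adjustment, with 757 more positive in members (6.16%) and 729 more negative (5.93%). Scaling by library size alone gave 829 and 529. The count was 434 with DESeq2, 846 without Control 1, 596 without Fracture 1 and 707 without Fracture 2. The Serpina1-low cells numbered 400 and 78 in Control and 2136 and 2297 in Fracture. Of them, 39.75% and 39.74% in Control and 10.3% and 9.49% in Fracture held 1 or 2 Serpina1 UMIs. Levels in the Serpina1-low sums differed between the groups, where fewer cells of a kind and less RNA per cell cannot be told apart. The articular gene Prg4 was at 1018 and 813 CPM in Serpina1-low cells of Control and at 24.8 and 32.2 in Fracture, and the callus gene Col3a1 at 43.7 and 29.5 against 2924 and 2920.

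Among the label markers outside the rule, the term was positive for all 3, and the Serpina1-low cells of Fracture lay below those of Control. All 3 were highest in the cells with the most Serpina1 UMIs, the count that draws the classes. The term was 1.94 for Fxyd2, 2.18 for Rspo4 and 1.41 for Pax1. These markers name the class that the rule drew, so their terms are a description and no test of them is used. Apoe, Hhip, Wif1 and Clu fell in members by less than in Serpina1-low cells, with differences of 1.86, 1.35, 1.58 and 1.09. Cytl1 fell to 92.7 and 81.2 CPM from 1572 and 1210 in Serpina1-low cells, a difference of 3.01. In Fracture, Cytl1 too was highest in the cells with the most Serpina1 UMIs, so its term is likewise a description. For the resting zone list as a whole, 6 of 9 genes were more positive in members and 1, Sfrp5, more negative, by -3.54 (adjusted p = 1.33e-06). Sfrp5 was lower after fracture in members, while Serpina1-low cells held 72.2 and 108 CPM in Control and 124 and 110 in Fracture.

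Rcan1, Rrad, S100a4, Slurp1 and Wnt4 had positive terms. Rcan1 went from 17.3 and 24.0 CPM to 57.0 and 54.0 in Serpina1-low cells, and the term was 1.72 (adjusted p = 2.88e-05, edgeR). Rrad and S100a4 had terms of 1.67 and 1.64, and Slurp1 one of 4.95 (adjusted p = 2.94e-08), with 33.7, 12.9, 11.4 and 9.12 CPM in Serpina1-low cells. Wnt4 was at 96.7, 88.5, 69.2 and 62.0 CPM in Serpina1-low cells, with a term of 1.43 (adjusted p = 7.18e-07). Of 22 immediate early genes, 10 were more positive in members and 1 more negative. For glycolysis and hypoxia, 1 of 25 genes was more positive in members and 7 were more negative. For folding and secretion, 1 of 29 was more positive and 8 were more negative.

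Callus and stroma genes went the other way, with 14 of 19 more negative in members and 0 more positive. C1qtnf3, a secreted relative of adiponectin, rose in members from 213 and 203 CPM to 390.2 and 400, and in Serpina1-low cells from 62.0 and 63.6 to 1738 and 1697, a difference of -3.93 (adjusted p = 2.01e-12, edgeR). The largest negative terms of the naming rule were 1520401A03Rik at -6.74, Ptgs2, the inducible prostaglandin synthase, at -5.34, H2-Ab1, a class II MHC chain, at -3.58, and C1qtnf3 and Sfrp5. The first and Ptgs2 lost their calls without Control 1 (adjusted p = 0.145 and 0.369). Control members held 3 and 1 UMIs of 1520401A03Rik and 14 and 1 of Ptgs2. In Serpina1-low cells of Control these genes stood at 0.208 and 0 CPM and at 0.416 and 0 CPM. H2-Ab1 was at 10.6, 14.5, 24.7 and 27.9 CPM in members and 5.41, 6.45, 151 and 149 in Serpina1-low cells. Cdh5 cells held H2-Ab1 at 18.2, 28.9, 24.3 and 21.9 CPM. The largest positive terms were those of Prg4, whose UMIs in members came largely from single cells as given above, Slurp1, the basophil protease genes Prss34 and Mcpt8, and Gas1. In Fracture 2, 1 member held 69.3% of the Prss34 and 57.4% of the Mcpt8 UMIs, and without that preparation the terms were -0.41 (adjusted p = 0.937) and -1.77 (adjusted p = 0.726).

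**Figure D5:**
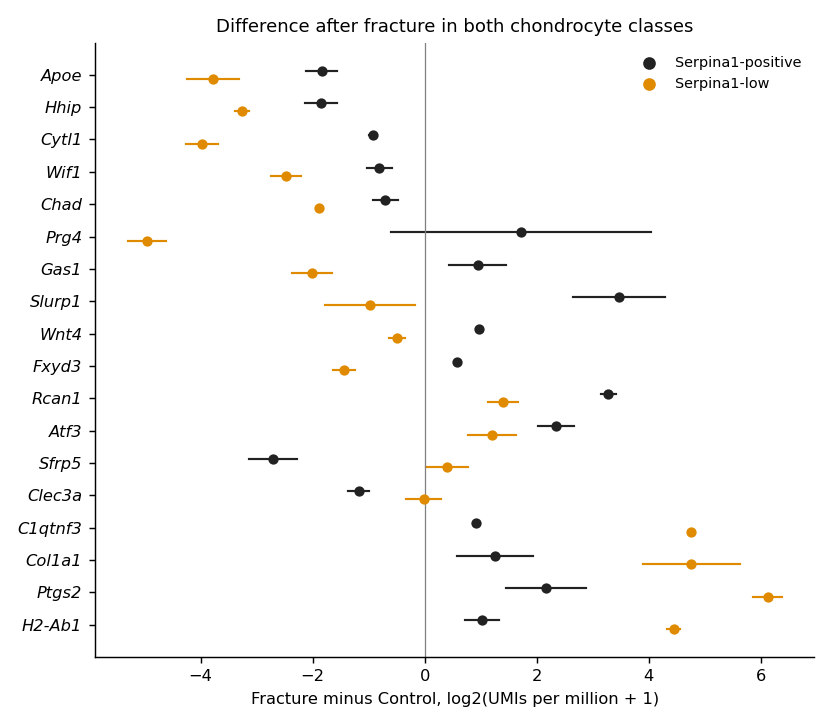
Difference between Fracture and Control (x axis, log2 of CPM + 1) in Serpina1-positive and Serpina1-low cells for 18 genes, chosen after their values were seen. Points are the mean and lines the range of the 4 differences between single Fracture and Control preparations, and Sfrp5 lies left of 0 in members alone.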

How the data were processed

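RNA from unbroken and fractured mouse femurs was measured in 8 Chromium 3 prime libraries. The authors deposited UMI counts of each gene in each cell barcode, not normalized, and the submitters' processing notes name bcl2fastq 2.19.1.403, STAR 2.7.3a, UMI-tools 1.0.0 and featureCounts 1.6.4 of Subread. The study's methods name STARsolo, the single-cell mode of STAR, for barcode handling and counting. The notes also name UMI-tools and featureCounts, so which of them made these tables is not settled, and neither is the treatment of reads that fit several genes or of doublets. Members, gene lists and tests were chosen with earlier results of these data known.

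Cells and members were selected by the rule in the text. Doublets were called per library with the Scrublet method in scanpy 1.11.5, called 1.58% of all cells, and were kept. Cdh5 cells held at least 3 UMIs of Cdh5, Emcn and Pecam1 together and fewer than 5 UMIs of the cartilage matrix genes per 10000. Counts were summed by preparation and class, both libraries together. Libraries held 56543151 to 89126291 UMIs. Intervals are 95% Wilson intervals. Genes were filtered by expression, scaled by TMM and tested with edgeR 4.0.16 (R 4.3.3, quasi-likelihood, Benjamini-Hochberg over all genes tested, adjusted p under 0.05), with standard errors from the F statistic and the class-by-group term in a fit of both classes that held preparation as a term. Shares were compared by a two-sided exact permutation test. Log2 class differences used CPM + 1. The steps were tested on simulated data. DESeq2 1.42.0, other scaling, filters, thresholds, library subsets and leaving out each preparation were the alternatives. 0 columns of unassigned samples were left unused.

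Named genes were the 12 largest called rises and falls after fracture with groups that did not overlap and a mean of at least 20 CPM, the 12 largest class differences in each direction with 1 sign in all 4 preparations, the 5 largest class-by-group terms in each direction, the label markers, the genes of the rule and the genes of the lists, leaving out mitochondrial and haemoglobin genes and numbered gene models from the ranked sets. The replicate numbers do not pair the samples by animal, and the deviations of equally numbered preparations had a correlation of -0.067 over 11468 genes. A gene that the naming rule picked is not reported here.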

Additional observations from a re-analysis of the deposited data

Results flagged for a closer look

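The difference between Fracture and Control was not the same in Serpina1-positive and Serpina1-low sums for 1486 genes in edgeR's test. The genes below were picked out by that test. Serpina1-low cells numbered 400 and 78 in Control and 2136 and 2297 in Fracture. A changed mix of cells and a change per cell cannot be told apart in these terms. The terms are log2 differences, positive where the difference after fracture was more positive in the sums of members. Among genes with the largest terms, Prg4 had 6.27, Slurp1 4.95, the basophil genes Prss34 and Mcpt8 4.74 and 4.45, and Gas1 3.17. On the negative side 1520401A03Rik had -6.74, Ptgs2 -5.34, C1qtnf3 -3.93, H2-Ab1 -3.58 and Sfrp5 -3.54. The terms of 1520401A03Rik and Ptgs2 rest on few Control UMIs, as given above.

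For Prg4 a single member held 84.9%, 81.7%, 51.0% and 87.1% of the UMIs of its preparation, and with the second library of each preparation alone the term was 0.11 (adjusted p = 0.975, edgeR). Gas1 had 1 member with 78.9% of its UMIs in Control 2 and 45.2% in Fracture 1, and its term was 0.16 in the second libraries alone. The part of these cells in the terms was not tested further.

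Of the genes with the largest changes in members, the terms that passed the test were 1.86 for Apoe, 1.35 for Hhip, 1.09 for Clu, 0.65 for R3hdml and 1.41 for Pf4, all of which fell in members. They were 1.72 for Rcan1, 1.67 for Rrad and 1.64 for S100a4, which rose. Negative terms were found for Mt1 (-0.91), Postn (-1.89), Tagln (-1.21), Tubb2b (-1.57) and Cilp2 (-1.03). For Mt1 and Postn the rise was smaller in members, with Mt1 at 560 and 728 CPM in Serpina1-low cells of Fracture.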

How the results depend on the processing

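The count of 949 genes changed after fracture was 256 with the genes missing from Control 1 kept (chosen after seeing the data), 563 with DESeq2, 1998 with no filter on low counts, 520 and 589 with the first and the second library of each preparation, and 233 to 1935 with 1 preparation left out. With the genes missing from Control 1 kept, 18 of the 24 largest changes stayed called. Those lost were Rgs5, Pf4, Tagln, Clu, Pthlh and Ctgf. The cause of these moves was not tested. The class-by-group count of 1486 was 434 with DESeq2, 899 and 519 with single libraries, and 596 to 1569 with 1 preparation left out. With no filter it was 1903, split into 687 and 1216, and scaling by library size gave 829 and 529. The replicate block, in which equal numbers share a term, gave 1185 calls after fracture, 933 of them shared with the fit without pairing, and the 24 genes with the largest changes stayed called. Control and Fracture share only these numbers. Gas1 reversed to -1.53 with the second libraries. Without 1 preparation the Prss34 term ranged from -0.41 to 7.04 and that of Mcpt8 from -1.77 to 6.15. The share of members stayed lower in Fracture by 42.4 to 63.2 points among gate cells. The median member had 9696 to 18214 UMIs by preparation, and how far depth limited the calls was not tested.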
